A study of Mus musculus with 6 samples.

Results

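A group of 10 genes of the cytoskeleton and the cell surface that migrating neuroblasts use, Dcx, Stmn1, Stmn2, Stmn4, Tubb3, Tubb2b, Dpysl3, Cd24a, Basp1 and Nav1, was followed through the neural stem and progenitor cells (NSPCs) of the adult mouse subventricular zone (SVZ). The genes were taken by name from the 34203 rows of the gene table, in which 21136 genes held at least 1 count, and 9 of the 10 were measured. Tubb2b was not analysed here. In the SVZ, astrocyte-like stem cells, the type B cells, pass from quiescence to activation, give rise to rapidly dividing type C cells, and these finally form neuroblasts, which leave the niche in chains toward the olfactory bulb. A migrating neuroblast extends a leading process filled with microtubules and then pulls its nucleus forward, so tubulins, the proteins that stabilise or dismantle microtubules, the actin-linked proteins of the growth cone and the adhesion molecules of the surface are all in use at once.

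The cells came from adult Nestin-CreERT2:R26-yfp mice on a C57BL/6N background, of both genders, in which tamoxifen activates a Cre recombinase driven by the Nestin promoter and so switches on a yellow fluorescent protein in NSPCs and the cells they give rise to. All groups carried both alleles and received tamoxifen. Uninjured mice were compared with mice 1 day (PT D1) and 7 days (PT D7) after photothrombotic ischemia (PT), a stroke made in the cortex with the dye Rose Bengal and light, and the SVZ of the same hemisphere was dissected. Fluorescent NSPCs and CD11b+ CD45low microglia were sorted singly into wells and sequenced by mCEL-Seq2, which counts molecules by unique molecular identifiers (UMIs), with 2 libraries of 192 wells for each condition. How many mice stand behind a library, and which plate held which condition, is not stated in the sources at hand. Plate and condition cannot be told apart. The p-values measure the spread between libraries of the same condition, estimated jointly over the conditions and for the most part shared across genes. That spread may be technical.

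The 658 cells kept by the authors comprised 222 NSPCs, 416 microglia and 20 cells of a mixed cluster. By the authors' names 50 of the NSPCs were quiescent and 45 activated type B cells, 47 were type C cells and 80 were neuroblasts, with 15 to 61 NSPCs and 4 to 29 neuroblasts in a library. UMIs summed over the NSPCs of a library ranged from 82504 to 497292, and over its neuroblasts from 18120 to 214209. All 10 markers of astroglia and type B cells were present in quiescent type B cells, at a summed 20148 counts per 1000000 UMIs (CPM) against 448 CPM in neuroblasts, and 18 other neuroblast genes, mostly transcription factors and other nuclear proteins, summed to 10434 CPM in neuroblasts and 9414 CPM in type C cells against 717 CPM in quiescent type B cells. Levels below are CPM of UMIs summed over the cells of a class, which in 3′ counting does not depend on transcript length.

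The 9 genes were all protein-coding and lay on 9 chromosomes of GRCm39. Among the microtubule genes, Tubb3 (chr8:124138163-124150092, plus strand) encodes a neuronal beta-tubulin, Dcx (chrX:142638838-142716307, minus strand) encodes doublecortin, which binds and stabilises microtubules, and Nav1 (chr1:135362318-135616086, minus strand) encodes neuron navigator 1, a protein of microtubule plus ends. Stmn1 (chr4:134195021-134201882, plus strand), Stmn2 (chr3:8574151-8626667, plus strand) and Stmn4 (chr14:66581745-66599131, plus strand) encode stathmins, which bind tubulin dimers and promote the disassembly of microtubules. Dpysl3 (chr18:43454049-43571532, minus strand) encodes a collapsin response mediator protein that acts in growth cone guidance. Basp1 (chr15:25363350-25414981, minus strand) encodes a protein of the inner face of the plasma membrane of growth cones, and Cd24a (chr10:43454280-43460264, plus strand) encodes a small glycoprotein anchored to the cell surface that is used to sort neuroblasts.

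The promoters of 4 of the 9 genes were matched by symbol in the RefSeq promoter table, which is built on GRCm38.p6, with Dcx under 2 start sites. They are shown because only these 4 genes had an entry there. Each was called lower at PT D1, as described further on, but so were Stmn2 and Stmn4, which had no entry.

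Each line gives the 250 bases before the first start site listed, 5′ to 3′ on the gene's strand. Capitals mark matches to 3 short motifs searched on both strands, the E-box CANNTG of basic helix-loop-helix factors, the homeobox motif TAATTA and the Sox motif ACAAAG.
Dcx, chrX:143933220-143933469, minus strand: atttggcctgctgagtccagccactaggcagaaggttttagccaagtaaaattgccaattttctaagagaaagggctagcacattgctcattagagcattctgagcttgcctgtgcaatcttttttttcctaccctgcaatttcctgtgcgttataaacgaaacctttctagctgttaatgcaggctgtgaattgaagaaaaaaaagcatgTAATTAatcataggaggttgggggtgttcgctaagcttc
Tubb3, chr8:123411303-123411552, plus strand: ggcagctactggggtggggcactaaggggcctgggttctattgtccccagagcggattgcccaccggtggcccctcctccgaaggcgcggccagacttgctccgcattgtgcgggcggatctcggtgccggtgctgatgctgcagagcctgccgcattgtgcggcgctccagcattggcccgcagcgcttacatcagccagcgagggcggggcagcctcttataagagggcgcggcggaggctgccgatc
Basp1, chr15:25413765-25414014, minus strand: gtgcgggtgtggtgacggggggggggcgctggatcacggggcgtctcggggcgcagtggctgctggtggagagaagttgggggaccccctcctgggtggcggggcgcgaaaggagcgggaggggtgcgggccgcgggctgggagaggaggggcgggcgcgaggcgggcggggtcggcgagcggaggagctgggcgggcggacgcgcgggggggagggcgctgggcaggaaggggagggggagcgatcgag
Nav1, chr1:135585356-135585605, minus strand: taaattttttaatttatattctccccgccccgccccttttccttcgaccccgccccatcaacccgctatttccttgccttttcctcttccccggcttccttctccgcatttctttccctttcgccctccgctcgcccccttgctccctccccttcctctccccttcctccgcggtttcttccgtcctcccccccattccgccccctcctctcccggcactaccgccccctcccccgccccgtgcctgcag
The Dcx window held 1 match to TAATTA, a motif present in 4.84% of the 32851 promoter windows of this length. None of the 4 windows held an E-box, which 66.2% of all windows did, or the Sox motif, which 16.5% did. The window of the second Dcx start site, chrX:143933125-143933374, which overlaps the one shown, held 1 match to the Sox motif and 1 to TAATTA. The Dcx window was the poorest in G and C, at 41.6%, whereas Nav1 reached 62.4%, Tubb3 68% and Basp1 78.8%, against a median of 52.4% over all windows. These matches describe letters only.

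Levels across the 4 subtypes are given as a description with no test, since the subtypes were drawn by clustering on the same cells and genes. With the exception of Stmn1, every one of the 9 genes was highest in neuroblasts, and the neuroblasts, 80 of the 222 cells, held 80.3% of the NSPC UMIs of Stmn2, 84.4% of those of Stmn4, 70.0% of those of Dcx and 67.5% of those of Tubb3. The plot of levels by subtype shows each library.

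**Figure D1:**
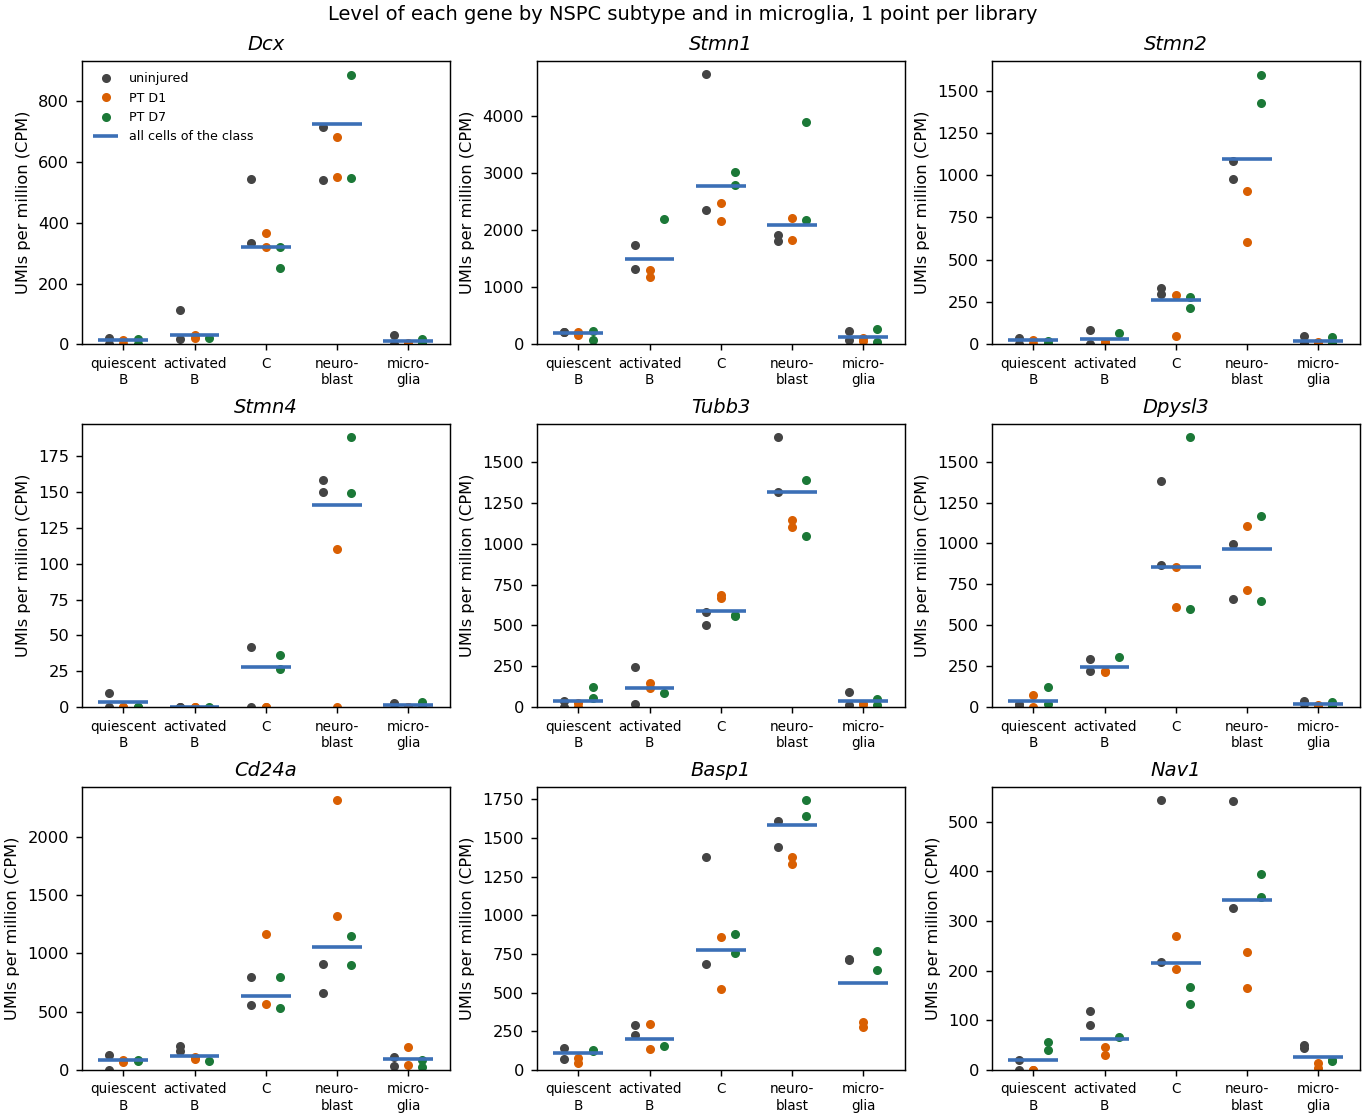
Level of the 9 genes, in CPM (vertical axis), in the 4 NSPC subtypes and in microglia (horizontal axis). Each point is 1 library with at least 3 cells of the subtype, coloured by condition, and the line is the level over all cells of the class, which is highest in neuroblasts for each gene but Stmn1.

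Tubb3, the neuronal tubulin, stood at 39.8 CPM in quiescent and 115 CPM in activated type B cells, then at 587 CPM in type C cells and 1317 CPM in neuroblasts. Its 6 neuroblast libraries ran from 1047 over a median of 1233 to 1654 CPM and lay above all 6 type C libraries, whose highest was 685 CPM. Dcx stood at 13.3, 31.2, 319 and 726 CPM in the same order of subtypes. Neuroblast libraries of Dcx ran from 541 over 618 to 888 CPM and met the highest type C library at 544 CPM, so these neighbours overlapped, whereas the lowest type C library, at 252 CPM, lay above the highest activated type B library, at 112 CPM. Nav1 followed the same order, at 19.9, 62.5, 215 and 341 CPM, with neuroblast libraries from 166 to 541 CPM and type C libraries from 133 to 544 CPM.

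The 3 stathmins differed in where they began. Stmn1 was present early, at 206 CPM in quiescent and 1501 CPM in activated type B cells, and reached 2767 CPM among type C cells and 2091 CPM in neuroblasts. For Stmn1 the highest quiescent type B library, at 238 CPM, lay below the lowest activated type B library, at 1177 CPM, and type C and neuroblast libraries overlapped. Stmn2 was late, at 23.2, 33.6, 261 and 1098 CPM, and its lowest neuroblast library, at 607 CPM, lay above its highest type C library, at 335 CPM. Neuroblasts thus held 4.21 times the type C level of Stmn2 but 0.756 times that of Stmn1. Stmn4, the rarest of the 9 with 77 UMIs in NSPCs, stood at 3.32 CPM in quiescent type B cells, 27.8 CPM among type C cells and 141 CPM among neuroblasts. In activated type B cells 0 UMIs of Stmn4 were counted, which allows up to 7.21 CPM.

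Dpysl3 stood at 39.8, 245, 855 and 965 CPM from quiescent type B cells to neuroblasts. It was the gene with the smallest step from type C cells to neuroblasts among the 8 that were higher there, at 1.13 times, and its neuroblast libraries, from 648 to 1166 CPM, overlapped with type C libraries from 598 to 1649 CPM. Basp1 stood at 110, 197, 774 and 1587 CPM, and its lowest neuroblast library, at 1335 CPM, overlapped with its highest type C library, at 1380 CPM. Cd24a, the surface glycoprotein, stood at 86.3, 118, 637 and 1058 CPM, with neuroblast libraries from 662 to 2318 CPM.

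In single cells the group appeared stepwise. After every cell had been thinned to 1000 UMIs, a median of 0 of the 9 genes was detected in quiescent and 1 in activated type B cells, 3 per type C cell and 5 per neuroblast. At least 5 of the 9 were seen in 53 of the 80 neuroblasts (66.3%), in 11 of the 47 type C cells (23.4%) and in 0 of the 50 quiescent and 0 of the 45 activated type B cells. Without thinning the medians were 2, 4, 7 and 8, at median depths of 5302.5, 8583, 8493 and 5698.5 UMIs per cell. The plot of genes per cell shows the whole spread.

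**Figure D2:**
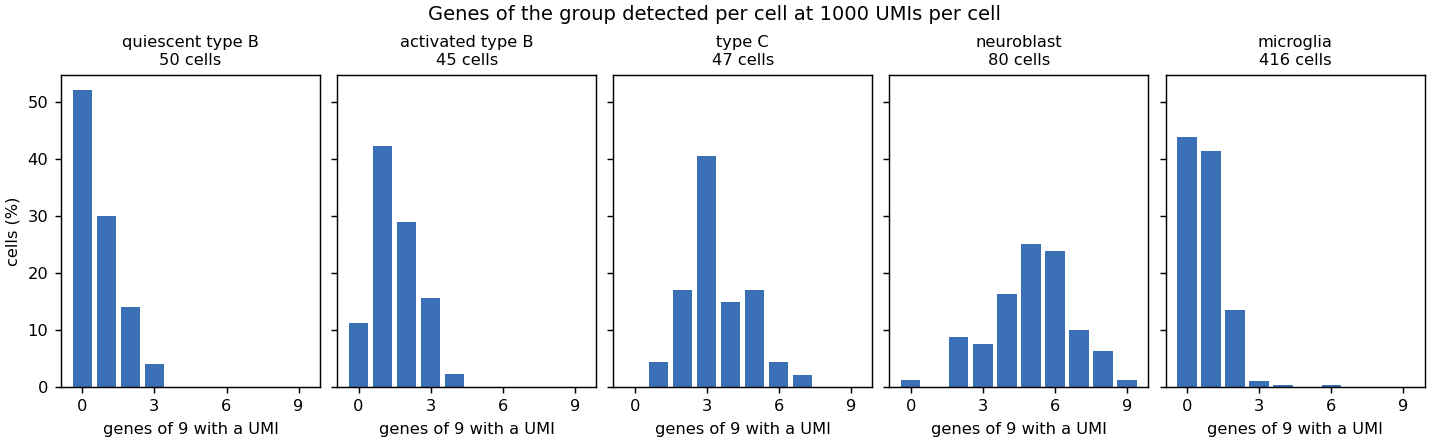
Share of cells (vertical axis, %) by the number of the 9 genes with at least 1 UMI (horizontal axis) after thinning to 1000 UMIs per cell, for the 4 NSPC subtypes and microglia. Neuroblasts centre on a median of 5 genes, type C cells on 3, activated type B cells and microglia on 1 and quiescent type B cells on 0.

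At this depth each gene but Stmn1 was seen in the largest share of cells among neuroblasts. The step up from quiescent to activated type B cells was absent for Tubb3 (12% and 11.1%), Stmn2 (6% and 2.22%) and Stmn4 (2% and 0%). It was present for the other genes. Tubb3 was seen in 72.5% of neuroblasts (58 of 80, exact 95% interval 61.4 to 81.9%) and in 46.8% of type C cells (22 of 47, 32.1 to 61.9%), against 12% of quiescent type B cells. Stmn2 was seen in 62.5% of neuroblasts (51.0 to 73.1%) and in 17.0% of type C cells (7.65 to 30.8%), and Dcx in 41.3% (30.4 to 52.8%) and 10.6% (3.55 to 23.1%). Stmn1 was seen in 95.7% of type C cells and 87.5% of neuroblasts, and also in 73.3% of activated type B cells. Microglia, taken as the background for these genes and with a median depth of 4854.5 UMIs, gave 0.962% for Dcx, 2.40% for Stmn2 and 3.37% for Tubb3 after the same thinning. The paper reports that SVZ microglia engulf neuroblasts, and whether that adds to these shares was not tested. In quiescent type B cells Dcx, at 0% (0 to 7.11%), was at background, and the interval of Stmn2, seen in 6% (1.25 to 16.5%), included the microglial share. Unthinned, Dcx was seen in 96.3% of neuroblasts, 72.3% of type C cells and 3.85% of microglia. Intervals cover counting error only.

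Basp1 stood out among the 9 in microglia. It was seen in 39.9% of thinned microglia (166 of 416, 35.2 to 44.8%) and stood at 558 CPM there, above its 197 CPM in activated type B cells, whereas the other 8 genes ranged from 1.34 to 130 CPM in microglia. The microglial libraries gave 708 and 716 CPM without injury, 309 and 277 CPM at PT D1 and 644 and 769 CPM by PT D7. Both PT D1 libraries were thus the lowest of the 6 in microglia, as they were for Basp1 in NSPCs. Pooled over a condition, Dcx, Stmn1, Stmn2, Stmn4, Tubb3, Dpysl3 and Nav1 were also lowest at PT D1 in microglia, at low levels. Tubb3, for one, stood there at 57.7, 17.3 and 28.7 CPM (uninjured, PT D1, PT D7). Its libraries overlapped, at 13.7 and 91.8 CPM, 16.7 and 17.9 CPM, and 10.2 and 47.2 CPM in the same order. Of the genes just named, only Nav1 had both PT D1 libraries below all others, at 2.78 and 13.4 CPM. Pooled Cd24a was highest at PT D1, at 78.1, 128 and 52.4 CPM, with libraries that overlapped. These contrasts in microglia were not tested.

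Across the 23 sums of a library and a subtype with at least 3 cells, the members followed each other with Spearman correlations from 0.378, between Stmn1 and Stmn4, to 0.949, between Dcx and Basp1, with a median of 0.812 over 36 pairs. The points share libraries, depths and the subtype order, so these values describe and carry no test. Basp1 was the member most like Dcx, Stmn2, Dpysl3 and Nav1, whereas Stmn4 was most like Stmn2 (0.727) and Stmn1 most like Dpysl3 (0.813). Among 3144 other genes with a mean of at least 50 CPM, the 5 whose pattern came closest to the mean of the members were Dlx6os1 (0.95), a long noncoding RNA of the Dlx5 and Dlx6 locus, Map1b (0.939), a microtubule-associated protein of growing axons, Dbn1 (0.927), an actin-binding protein, Pfn2 (0.926), a profilin of neurons, and Bcl11a (0.926), a zinc finger transcription factor. Dlx6os1 stood at 3.32 CPM among quiescent type B cells and 561 CPM among neuroblasts, and Map1b at 83.0 and 952 CPM.

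One day after PT the NSPCs as a whole held less of most of these transcripts. In all NSPCs of a library, 6 of the 9 genes fell at PT D1 (Stmn2, Stmn4, Basp1, Nav1, Tubb3 and Dcx) in the quasi-likelihood test of edgeR (Benjamini-Hochberg adjusted p, threshold 0.05), where 2.12% of the 4907 genes tested were called, 1.08% lower and 1.04% higher. Dpysl3, Stmn1 and Cd24a were not called. The median log2 fold change of the 9 genes was -1.06, against 0.0258 over all genes tested. In bulk sums of this kind, fewer cells of a type and less RNA per cell cannot be told apart. The plot of NSPC levels by condition shows every library.

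**Figure D3:**
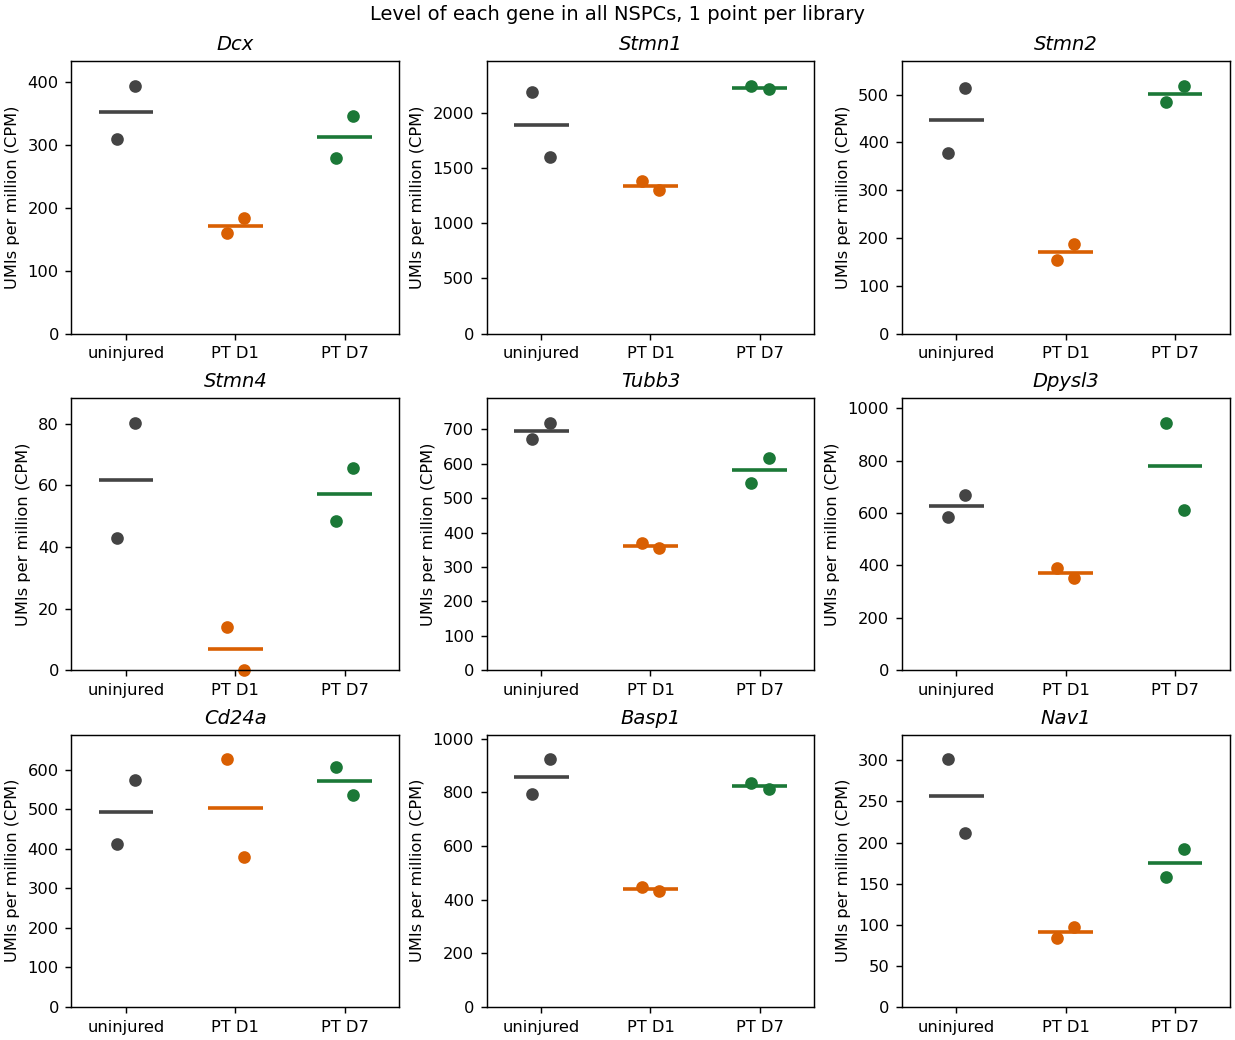
Level of the 9 genes in CPM (vertical axis) summed over all NSPCs of a library, by condition (horizontal axis), with each point a library and each line the mean of 2 libraries. Both PT D1 libraries lie below both uninjured and both PT D7 libraries for each gene but Cd24a.

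Among the microtubule genes, Tubb3 measured 671 and 720 CPM in the uninjured libraries, 369 and 355 CPM at PT D1 and 545 and 617 CPM at PT D7. Both PT D1 libraries were below all others, and the fitted log2 fold change at PT D1 was -1.02 ± 0.22 (SE, adjusted p = 0.013). Dcx measured 310 and 394 CPM without injury, 160 and 184 CPM at PT D1 and 279 and 346 CPM by PT D7. The PT D1 libraries again did not overlap with the rest, and the log2 fold change was -1.12 ± 0.27 (adjusted p = 0.025). Nav1 measured 301 and 211 CPM, 83.5 and 97.7 CPM, and 158 and 192 CPM in the same order. Its log2 fold change at PT D1 was -1.46 ± 0.31 (adjusted p = 0.011), and the PT D7 libraries lay between those of the other conditions.

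Stmn2 measured 379 and 513 CPM without injury, 153 and 187 CPM at PT D1 and 485 and 518 CPM by PT D7. It fell at PT D1 by 1.47 on the log2 scale (SE 0.27, adjusted p = 0.0025), or 2.78-fold. Stmn4 measured 43.0 and 80.4 CPM, 13.9 and 0 CPM, and 48.5 and 65.7 CPM, where the 0 UMIs of the second PT D1 library allow up to 8.88 CPM. At PT D1, 2 UMIs of Stmn4 were counted in 71 NSPCs against 45 in 75 uninjured NSPCs, which gave a ratio of CPM of 0.0566 with an exact interval of 0.00666 to 0.217, and the test called it (adjusted p = 0.0066). Stmn1 measured 2186 and 1595 CPM, 1378 and 1300 CPM, and 2242 and 2209 CPM. The PT D1 libraries of Stmn1 were the lowest of the 6, but its log2 fold change of -0.55 ± 0.19 was not called (adjusted p = 0.14).

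Basp1 measured 792 and 923 CPM without injury, 445 and 432 CPM at PT D1 and 836 and 811 CPM by PT D7, and fell at PT D1 with a log2 fold change of -1.06 ± 0.22 (adjusted p = 0.0079). Dpysl3 measured 585 and 670 CPM, 390 and 352 CPM, and 945 and 612 CPM. Its log2 fold change of -0.86 ± 0.24 at PT D1 missed the threshold (adjusted p = 0.061). Cd24a measured 413 and 575 CPM, 626 and 379 CPM, and 606 and 536 CPM, so its libraries overlapped in every comparison. The log2 fold change of Cd24a at PT D1 was -0.14, with a 95% interval from -0.66 to 0.38. For 8 of the 9 genes both PT D1 libraries lay below both uninjured ones, a pattern that 22% of all genes tested showed.

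Without the uninjured library 2, the larger of that condition, only Nav1 was called (adjusted p = 0.0063), the adjusted p of the others tested ranged from 0.10 for Stmn2 to 0.88 for Cd24a, Stmn4 could not be tested, and the log2 fold changes stayed below 0 for all but Cd24a. Without the PT D1 library 1 Dcx was not called (adjusted p = 0.098), and without the PT D1 library 2 Stmn4 was not (adjusted p = 0.19). DESeq2 called Stmn2 and Basp1, and 0 members were called with every cell thinned to 1000 UMIs, where 4 genes in all were.

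From PT D1 to PT D7 all 9 genes had a fitted log2 fold change above 0, and 3 of them rose at an adjusted p under 0.05, where 0.632% of genes were called, 0.224% higher and 0.408% lower. For 8 of the 9, Cd24a being the exception, both PT D7 libraries lay above both of PT D1, as they did for 19.8% of all genes. The median of the 9 was 0.92 against -0.0029 over all genes. Stmn2 rose with a log2 fold change of 1.55 ± 0.27 (adjusted p = 0.0038). Dpysl3 rose with 1.03 ± 0.24 (adjusted p = 0.049), a call lost without either PT D1 library 2 (adjusted p = 0.155) or PT D7 library 1 (adjusted p = 0.183). Stmn4, with 30 UMIs in 76 cells at PT D7, was called (adjusted p = 0.035), and the ratio of PT D1 to PT D7 was 0.0662 (0.00767 to 0.261), a call lost without PT D1 library 2 (adjusted p = 0.42) or PT D7 library 2 (adjusted p = 0.37). Basp1 (0.92, adjusted p = 0.053), Stmn1 (0.74, adjusted p = 0.073), Dcx (0.89, adjusted p = 0.17), Tubb3 (0.71, adjusted p = 0.19), Nav1 (0.98, adjusted p = 0.22) and Cd24a (0.22, adjusted p = 0.80) were not called. DESeq2 called 0 of the 9 (adjusted p of Stmn2 = 0.051). This comparison shares the PT D1 libraries with the one before it. The interval of the Stmn4 ratio pools libraries and covers counting error only.

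Between PT D7 and uninjured NSPCs none of the 9 genes was called by edgeR, where 4 of 4907 genes were (0.0815%). An unadjusted p under 0.05 was found for 0 members and for 230 of all genes tested, and DESeq2 called none of the members. Fitted log2 fold changes ran from -0.49 ± 0.29 for Nav1 to 0.19 ± 0.19 for Stmn1, all with an adjusted p of 0.995. Libraries of PT D7 and uninjured NSPCs did not overlap for 3 of the 9, 1 higher (Stmn1) and 2 lower (Tubb3 and Nav1), against 16.6% and 17.2% of all genes. The 95% interval of Stmn2 was -0.44 to 0.58 and that of Nav1 -1.10 to 0.12, so changes of that size remained possible.

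The share of neuroblasts moved with these levels. Neuroblasts made up 37.5% and 49.2% of the NSPCs in the uninjured libraries (6 of 16 and 29 of 59), 21.1% and 28.8% at PT D1 (4 of 19 and 15 of 52) and 33.3% and 34.4% at PT D7 (5 of 15 and 21 of 61). Activated type B cells, which held less of each of the 9 genes than type C cells, made up 25% and 6.78%, 31.6% and 36.5%, and 0% and 19.7% in the same order. In UMIs, neuroblasts gave 40.3% of the uninjured, 16.8% of the PT D1 and 27.5% of the PT D7 NSPC total. If each subtype had kept its level over all libraries and only these shares of UMIs had changed, the pooled level at PT D1 would have differed from uninjured by a log2 ratio of -0.99 for Dcx, where -1.10 was observed, and of -0.89 for Tubb3, where -0.98 was observed. For Stmn2 the shares gave -1.06 and the observed value was -1.46, for Nav1 -0.71 and -1.29, for Basp1 -0.80 and -1.04, and for Cd24a -0.81 and -0.27. The observed fall was larger than the one the shares gave for 8 of the 9 genes, Cd24a being the exception, and the difference between both was not tested. The subtypes were named from clusters that use these genes, so share and level are not independent measures.

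**Figure D4:**
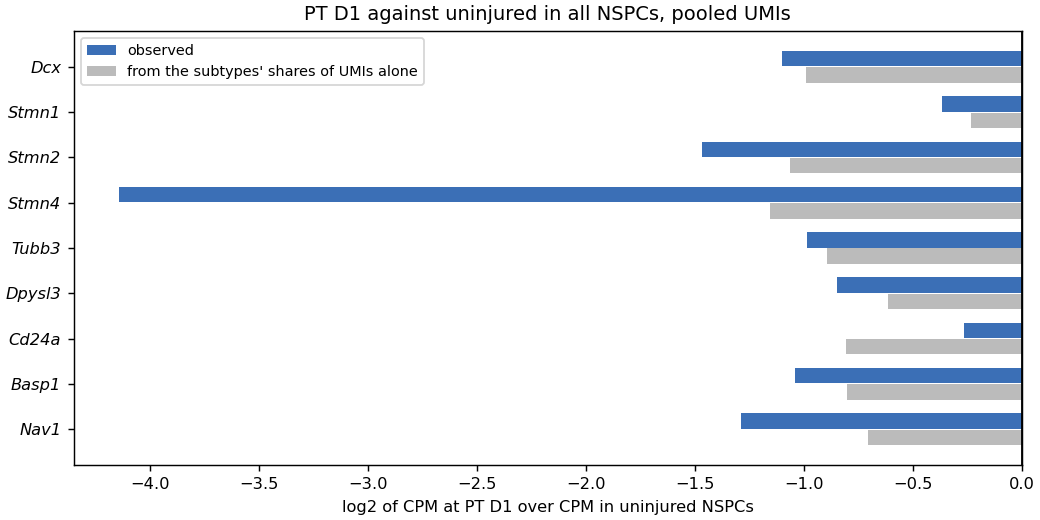
Log2 ratio of the pooled CPM at PT D1 to that in uninjured NSPCs (horizontal axis) for the 9 genes, as observed (blue) and as the subtypes' shares of UMIs alone would give with each subtype's level held (grey). Observed bars reach further below 0 than grey ones for each gene but Cd24a, and the bar of Stmn4 rests on 2 UMIs at PT D1.

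In NSPCs without neuroblasts, 0 of the 8 members tested were called, where 31 genes in all were. The log2 fold changes at PT D1 there were -1.61 for Stmn2, -1.15 for Nav1, -1.08 for Dcx, -0.79 for Basp1 and -0.35 for Tubb3, with adjusted p from 0.16 for Stmn2 to 0.75 for Tubb3. Summed over a condition, the cells other than neuroblasts held 145 CPM of Stmn2 in uninjured mice, 42.5 CPM at PT D1 and 156 CPM at PT D7. The libraries differed. In type C cells Stmn2 stood at 335 and 300 CPM without injury, 291 and 48.9 CPM at PT D1 and 213 and 281 CPM at PT D7. Activated type B cells gave 16.9% of the uninjured and 46.1% of the PT D1 NSPC UMIs, pooled over libraries. By library the shares were 38.4% and 11.9% without injury and 46.8% and 45.8% at PT D1. The part of this mix in the pooled values was not tested.

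Within neuroblasts at PT D1, 0 of the 8 members tested by edgeR were called, where 2 of 688 genes (0.291%) were. Cd24a and Nav1 had an unadjusted p under 0.05, as did 88 of the 688 genes tested. The median log2 fold change of the 8 members was -0.33 against 0.0165 over all genes tested, and Stmn4 did not pass the filter on low counts. Nav1 measured 541 and 327 CPM in the neuroblasts of the uninjured libraries, 166 and 238 CPM at PT D1 and 349 and 395 CPM at PT D7. Its 2 PT D1 libraries were the lowest, with a log2 fold change of -1.01 ± 0.40 (adjusted p = 0.32). Stmn2 measured 1083 and 980 CPM, 607 and 906 CPM, and 1595 and 1426 CPM, in 3 ranges that did not overlap. Its log2 fold change was -0.53 ± 0.27 at PT D1 (adjusted p = 0.49) and 1.00 ± 0.27 from PT D1 to PT D7 (adjusted p = 0.21).

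Cd24a went the other way in neuroblasts. It measured 662 and 906 CPM without injury, 2318 and 1319 CPM at PT D1 and 897 and 1148 CPM by PT D7, so both PT D1 libraries were above the rest. The 2318 CPM came from 42 UMIs in 4 cells. Pooled Cd24a was also highest at PT D1 in microglia and in type C cells (598, 837 and 584 CPM), with libraries that overlapped in both. It was highest at PT D1 in mixed cells too, but their make-up differed between conditions. Pooled choroid plexus markers there summed to 99114, 288 and 1303 CPM, and ependymal markers to 3950, 5079 and 1073 CPM (uninjured, PT D1, PT D7). In mixed cells condition and cell type cannot be told apart. In quiescent and activated type B cells pooled Cd24a was lower at PT D1 than without injury. The quiescent libraries overlapped, at 0 and 125 CPM without injury and 83.5 and 63.1 CPM at PT D1. For Cd24a in neuroblasts, the fit gave the following. The log2 fold change at PT D1 was 0.84 ± 0.31 (adjusted p = 0.29), and among the alternatives run it was called only without the PT D1 library 2 (adjusted p = 0.035). From PT D1 to PT D7 it was -0.54 ± 0.32 (adjusted p = 0.73). For the other members at PT D1 the fitted log2 fold changes were -0.56 ± 0.27 for Tubb3, -0.39 ± 0.24 for Basp1, -0.27 ± 0.35 for Dpysl3, -0.24 ± 0.33 for Dcx and -0.06 ± 0.27 for Stmn1, with adjusted p from 0.42 to 0.98. On the scale of the fit, neuroblast libraries of PT D1 and uninjured mice did not overlap for 5 of 8 members, 4 lower and 1 higher, against 22.4% and 22.7% of all genes tested.

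The few Stmn4 UMIs in neuroblasts were counted directly. There were 39 in 35 uninjured neuroblasts, 2 in 19 at PT D1 and 24 in 26 at PT D7. Those at PT D1 came from the first library, with 4 neuroblasts, at 110 CPM, against 150 and 159 CPM in the uninjured libraries. In the second PT D1 library 0 were found in 15 neuroblasts, which allows up to 47.7 CPM. The ratio of PT D1 to uninjured, pooled over libraries, was 0.157, with an interval of 0.0183 to 0.605 that covers counting error only. Between PT D7 and uninjured neuroblasts the fitted log2 fold changes of the 8 members ran from -0.25 ± 0.25 for Tubb3 to 0.52 ± 0.26 for Stmn1, and 0 were called (adjusted p from 0.96 to 1.00), where 1 gene was (0.145%).

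**Figure D5:**
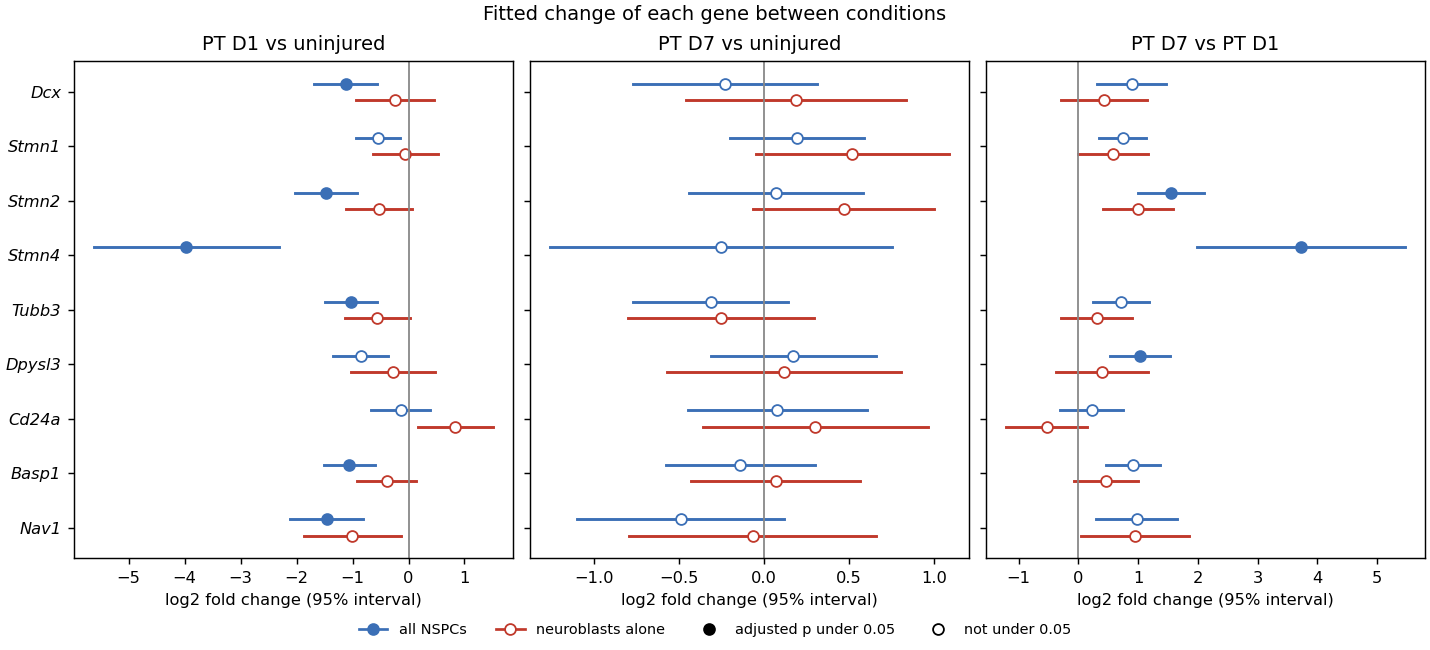
Fitted log2 fold change with its 95% interval (horizontal axis) for each gene (vertical axis) in the 3 comparisons, in all NSPCs (blue) and in neuroblasts alone (red), with filled points called at an adjusted p under 0.05. Filled points occur only in all NSPCs, 6 at PT D1 and 3 from PT D1 to PT D7, and Stmn4 has no neuroblast point because it did not pass the filter.

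Whether the response of neuroblasts differed from that of the other NSPCs was tested in one model with each library as its own block. The spread in this model was taken almost wholly from all genes together. None of the 9 members was called for the PT D1 effect, where 0 of 2454 genes were and 95 had an unadjusted p under 0.05, and Cd24a was the only one with an unadjusted p under 0.05 (difference of log2 fold changes 1.24 ± 0.44, adjusted p = 0.83). The differences ran from -0.19 ± 0.45 for Tubb3 up to 1.55 ± 1.48 for Stmn4. For the PT D7 effect 0 members were called, where 1 gene was (0.0407%), with differences from -0.55 ± 0.43 for Tubb3 to 0.43 ± 0.52 for Dcx.

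Related genes that were not members were counted by list in all NSPCs at PT D1, where 1.08% of all genes were called lower. Of 20 further microtubule and tubulin-binding genes tested, 2 fell and 0 rose, namely Map1b (log2 fold change -1.41 ± 0.25, adjusted p = 0.0024) and Crmp1 (-1.26 ± 0.31, adjusted p = 0.029), which belongs to the same protein family as Dpysl3, and the median of the list was -0.23. Of 14 actin and membrane genes 1 fell, Tmsb10, a thymosin that binds actin monomers (-1.22 ± 0.24, adjusted p = 0.0056), with a median of -0.27. Of 10 surface and guidance genes tested of 25 listed, 2 fell, Ncam1 (-1.0 ± 0.24, adjusted p = 0.023), the cell adhesion molecule that carries polysialic acid on neuroblasts, and Epha4 (-1.57 ± 0.37, adjusted p = 0.023), an ephrin receptor, with a median of -0.73. Of the 18 other neuroblast genes 3 fell, Dlx6os1 (-2.44 ± 0.31, adjusted p = 5.6e-05), Nrxn3 (-1.76 ± 0.34, adjusted p = 0.0045), a presynaptic adhesion gene, and Sox11 (-0.76 ± 0.18, adjusted p = 0.025), a transcription factor of immature neurons, and all 18 had a log2 fold change below 0, with a median of -0.69.

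From PT D1 to PT D7 in all NSPCs, where 0.224% of all genes were called higher, Crmp1 (1.41 ± 0.31, adjusted p = 0.031), Tmsb10 (1.09 ± 0.24, adjusted p = 0.033), Dlx6os1 (2.27 ± 0.32, adjusted p = 0.00031) and Elavl4 (1.28 ± 0.29, adjusted p = 0.034), an RNA-binding protein of neurons, rose, and 0 of the 10 surface genes did. In neuroblasts alone 0 genes of these 4 lists were called in any comparison, out of 14, 10, 3 and 17 tested. The summed level of the 18 other neuroblast genes in neuroblast libraries was 9775 to 10172 CPM without injury, 12345 to 14018 CPM at PT D1 and 9477 to 10417 CPM by PT D7.

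Markers of other cells moved with condition beside these results. The 8 choroid plexus markers summed to 1523 to 3851 CPM in the NSPCs of the uninjured libraries, with all 8 present, but to 47.4 to 76.6 CPM at PT D1, with 4 present, and 75.8 to 97.0 CPM at PT D7, with 3 present. The same sums in neuroblasts were 1474 to 3828 CPM, 47.7 to 166 CPM and 53.8 to 249 CPM. In neuroblasts the 10 oligodendrocyte markers summed to 511 to 1793 CPM in uninjured libraries, 166 to 175 CPM at PT D1 and 598 to 2385 CPM at PT D7. The 10 microglial markers summed to 1056 to 1153 CPM in uninjured NSPCs, 1281 to 1460 CPM at PT D1 and 1031 to 3042 CPM at PT D7, and the 7 endothelial and 10 ependymal markers stayed at or below 84.8 and 55.7 CPM. The 10 markers of mature neurons summed to 48.7 to 104 CPM in NSPCs. The 11 markers of dividing cells and type C cells summed in neuroblasts to 271 to 831 CPM in uninjured libraries, 221 to 524 CPM at PT D1 and 1381 to 2243 CPM at PT D7, so both PT D7 libraries, the highest for Stmn2 in neuroblasts, were also the highest for these. In NSPCs the same markers summed to 2315 to 2814 CPM in uninjured libraries, 1993 to 2791 CPM at PT D1 and 2279 to 3638 CPM at PT D7. Of all marker genes tested in NSPCs at PT D1, 3 were called higher, Gfap (log2 fold change 2.42 ± 0.41, adjusted p = 0.0017), Fam107a (1.19 ± 0.31, adjusted p = 0.041) and Olig2 (2.80 ± 0.55, adjusted p = 0.0049), and those called lower included Ttr (-6.32 ± 0.41, adjusted p = 3.5e-10) and Enpp2 (-3.88 ± 0.54, adjusted p = 0.00016). Of the 10 astroglial markers tested there, 4 had a log2 fold change below 0 and the median was 0.20. Of the 4 oligodendrocyte markers tested, 1 was called higher and 1 lower, 3 were below 0 and the median was -0.39. The part of all these markers in the results above was not tested. Median depth per NSPC was 7002 UMIs without injury, 6364 at PT D1 and 5751 by PT D7, and the median mitochondrial share was 12.4%, 12.3% and 12.5%.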

How the data were processed

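Single cells were sorted and sequenced by mCEL-Seq2, with 192 wells in each of 6 libraries. The authors deposited UMI counts per gene and cell, with no normalization, and kept cells of over 1000 UMIs that lay no further than 3 median absolute deviations from the median and had at most 25% mitochondrial UMIs. The submitters' notes name bcl2fastq 2.17.1.14. The authors also deposited a cell table with each cell's condition, class, subtype and the percent of its UMIs that was mitochondrial, of which 13 other per-cell columns were not used. Doublets were limited by the authors through sorter pulse width and the upper UMI limit, and no doublet caller was run here. For PT D7 the library was read from the cell names. The digit that gave the library number in the other conditions was the same for both PT D7 libraries. Their numbers were therefore read from the last digit, odd or even as it ran in the other conditions. The block for library number and the correlations of same-numbered libraries rest on this reading.

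UMI counts were summed per library over all NSPCs or over neuroblasts (libraries with at least 3 cells) and tested with edgeR 4.0.16 (quasi-likelihood test, TMM, filterByExpr, all 3 conditions in one fit, two-sided, Benjamini-Hochberg adjustment over all genes tested, called at 0.05) in R 4.3.3. The difference between classes was fitted with library as a block. Whether libraries overlap was counted on the fitted CPM scale, and other levels are CPM of all UMIs (counts per 1000000). For shares of cells each cell was thinned to 1000 UMIs, and intervals are exact 95% binomial ones. The limit for 0 UMIs is 3 counts. Gene positions came from the GENCODE annotation of GRCm39. The likeness measure was a Spearman correlation with the mean standardised log2(CPM + 10) of the members. The steps were tested on simulated data, and Python 3.11.15 was used for the descriptions. The members and lists were chosen with earlier results of these data known. All members were named, as were the called genes of 4 related lists (at most 4 per list and comparison) and the 5 genes most like the members. The values from subtype shares alone were added after seeing the data. The authors' own tests took cells as replicates, whereas libraries were the replicates here. Alternatives were another tool (DESeq2 1.42.0), no TMM, no filter on low counts, a block for library number, a fit of only 2 conditions, leaving out each library in turn, at least 2000 UMIs per cell, at most 10% mitochondrial UMIs, thinned cells, and NSPCs without neuroblasts. The labels do not say whether libraries of the same number belong together. In each condition library 2 held more NSPCs, 59, 52 and 61 against 16, 19 and 15 (uninjured, PT D1, PT D7). Deviations of same-numbered libraries correlated at -0.058 to 0.095 in NSPCs and -0.040 to 0.081 in neuroblasts. With 2 libraries per condition these values cannot decide the question.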

Additional observations from a re-analysis of the deposited data

Results flagged for a closer look

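The 20 cells of the mixed cluster, which no comparison used, held UMIs of 6 of the 9 genes above the limit that a count of 0 allows. They held 147 UMIs of Cd24a, 48 of Stmn1, 19 of Basp1, 17 of Nav1, 12 of Tubb3 and 11 of Stmn4, but 1 each of Dcx and Stmn2 and 0 of Dpysl3, which allows up to 16.1 CPM. Several of these totals came from few cells. Of the Stmn4 UMIs 10 were in 2 cells of the PT D7 library 1, 8 of the Tubb3 UMIs were in 1 cell of that library, 9 of the Nav1 UMIs were in 1 cell of the PT D7 library 2, 23 of the Stmn1 UMIs were in the PT D7 library 1, and 69 and 49 of the Cd24a UMIs were in the 2 PT D1 libraries. Marker sums also differed between the libraries of these cells, from 195 to 5581 CPM for ependymal cells, 102 to 44651 CPM for oligodendrocytes, 23.4 to 7428 CPM for endothelial cells and 281 to 99114 CPM for choroid plexus, where the highest came from the 4 cells of the uninjured library 2 and the other 4 libraries reached at most 1340 CPM.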

How the results depend on the processing

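Over 842 refitted values of the members, 715 kept their direction and their side of the threshold, 39 lost the call, 9 gained one and 79 changed sign, 0 of those from a called value. In NSPCs at PT D1 against uninjured, 104 genes and 6 members were called, against 16 and 2 by DESeq2, 14 and 1 with at most 10% mitochondrial UMIs (4 libraries left), 4 and 0 with thinned cells and 31 and 0 without neuroblasts, and leaving out 1 library gave 39 to 229 genes and 1 to 7 members. At PT D7 against uninjured 4 genes were called, against 2 by DESeq2, 8 with no filter, 1 with at most 10% mitochondrial UMIs and 1 thinned, and 6 to 18 without 1 library. From PT D1 to PT D7, 31 genes and 3 members were called, against 6 and 0 by DESeq2, 12 and 0 with at most 10% mitochondrial UMIs, 3 and 0 thinned, 69 genes with no filter, 1 member with only 2 conditions and 0 members without neuroblasts, and 23 to 109 genes and 1 to 4 members without 1 library. With library number as a replicate block 88 genes and 6 members were called at PT D1, 4 genes at PT D7, and 16 genes and 1 member from PT D1 to PT D7. In neuroblasts 2 genes were called at PT D1, against 1 with no TMM, by DESeq2, with 2 conditions or thinned, and 6 to 16 genes and 0 to 1 members without 1 library. For neuroblasts at PT D7 the count was 2 thinned and 1 to 10 without 1 library, and from PT D1 to PT D7 it was 2 with no filter, 1 with the block or 2 conditions and 0 to 9 without 1 library. Cd24a (1.22, adjusted p = 0.035) was called in neuroblasts without PT D1 library 2, and Stmn4 (adjusted p = 0.040) without PT D1 library 1.

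In NSPCs the sign changed under at least 1 alternative for 1 of 9 members at PT D1 (3 values), 8 of 9 at PT D7 (18 values) and 1 of 9 from PT D1 to PT D7 (2 values). In neuroblasts it changed, in the same order, for 3, 6 and 4 of 8 members (6, 12 and 5 values), and for the difference between classes it changed for 8 of 9 at PT D1 (16 values) and 7 of 9 at PT D7 (17 values). Among the members whose values the report gives, these were, in NSPCs, Cd24a at PT D1 (0.27 thinned, -0.46 to 0.22 without 1 library) and from PT D1 to PT D7 (-0.35 thinned, -0.13 to 0.53), and, at PT D7, Nav1 (0.39 with at most 10% mitochondrial UMIs), Stmn1 (-0.15 thinned, -0.015 to 0.35) and Stmn2 (-0.15 to 0.38). In neuroblasts, of the members given, they were Stmn1 at PT D1 (0.17 with no TMM, -0.31 to 0.020) and PT D7 (-0.20 thinned), Dcx (-0.52 to 0.051) and Dpysl3 (0.050 thinned, -0.59 to 0.16) at PT D1. For the class difference, of those given, they were Tubb3 at PT D1 (0.018 with no TMM, -0.99 to 0.079) and Dcx at PT D7 (-0.85 to 0.97). Stmn4 at PT D1 was also among them, and ran from -3.50 to 2.78 over the alternatives. The cause was not tested. Neuroblasts with at most 10% mitochondrial UMIs could not be fitted. Depth limited Stmn4 most, with 77 UMIs in NSPCs.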
